A study of Macaca mulatta with 10 samples.

Results

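Fat was compared with skeletal muscle in control rhesus monkeys (Macaca mulatta), by RNA-seq of 1 library of each tissue from each of 4 animals. The libraries were chosen by their labels, a control sample group and a title ending in the tissue, and made up 8 of the 10 libraries of the series, 4 of fat and 4 of muscle. The other 2 were fat and muscle of 1 hyperinsulinemic monkey, the case for which the study collected these controls, and entered only 1 alternative fit. All animals were male, the labels name no genotype or treatment for the controls, and they give neither an age nor which fat depot or which muscle was taken. The animal name in the title, rhesus_920401, rhesus_940129, rhesus_940313 or rhesus_950509, joins the fat and the muscle library of 1 monkey, so 4 animals stand behind every comparison. Values for single libraries are given in that order of animals.

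White fat stores triglyceride in the droplet of the adipocyte, releases it as fatty acids when adrenergic signals activate lipolysis, and secretes hormones such as leptin and adiponectin. Skeletal muscle is built of multinucleate fibers packed with sarcomeres, in which calcium released from the sarcoplasmic reticulum lets myosin pull on actin, and it draws ATP from phosphocreatine, glycogen and mitochondria. Both tissues take up glucose in response to insulin through GLUT4 and also hold vessels, fibroblasts, immune cells and nerves, so bulk RNA from either is a mixture. In such bulk samples, fewer cells of a type and less RNA per cell cannot be told apart.

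Between 30669915 and 43268985 reads were mapped per library, of which 18091221 to 26850260 fell in the 28595 annotated genes. Levels are given as RPKM, reads scaled to transcript length and to the mapped reads of the library. The 10 genes with most reads held 5.97% to 8.09% of the gene reads in fat and 30.3% to 32.9% in muscle, so that the other muscle genes shared a smaller remainder of each library. For this reason differences between tissues were computed on counts scaled with edgeR's TMM factors (1.54 to 1.74 in fat, 0.555 to 0.670 in muscle), always as log2 of fat minus muscle with its standard error (SE). The median difference of all genes was 0.23 on that scale and 1.61 when counts were scaled to the mapped totals, a shift of 1.37, and a difference seen in RPKM carries that shift toward fat.

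The labelled tissues were checked against 2 defining genes each. ADIPOQ, which encodes adiponectin (chromosome 2, 179206398 to 179208226, in the coordinates of the tables, whose build is not given in the sources used here), stood at 867, 1491, 631 and 1477 RPKM in fat and at 8.24, 3.52, 2.06 and 15.4 RPKM in muscle. PLIN1, the perilipin that coats the adipocyte's lipid droplet (chromosome 7, 69293432 to 69301237), stood at 535, 499, 258 and 484 RPKM in fat and at 5.28, 0.793, 0.833 and 8.51 RPKM in muscle. Every fat library lay far above every muscle library for both genes, with log2 differences of 5.86 ± 0.66 for ADIPOQ and 5.42 ± 0.77 for PLIN1. ACTA1, the actin of skeletal muscle thin filaments (chromosome 1, 227524304 to 227527137), stood at 29482, 31634, 29950 and 24384 RPKM in muscle and at 101, 1.18, 80.9 and 0.444 RPKM in fat. CKM, the creatine kinase of muscle (chromosome 19, 51741480 to 51753381), stood at 12130, 11147, 16742 and 11693 RPKM in muscle and at 43.8, 0.673, 28.6 and 0 RPKM in fat. The muscle genes separated the tissues by log2 differences of -10.69 ± 1.88 for ACTA1 and -10.88 ± 1.99 for CKM (-16.46 and -16.62 without the fat libraries of rhesus_920401 and rhesus_940313), and all 4 markers went with the labels in every library.

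The fat libraries of rhesus_920401 and rhesus_940313 stood apart from the other fat libraries in their level of muscle transcripts. ACTA1 in their fat was 0.343% and 0.270% of its RPKM in the muscle of the same animal, against 0.00374% and 0.00182% in rhesus_940129 and rhesus_950509. Over the 40 sarcomere genes that passed the test toward muscle, the median was 0.649%, 0.157%, 0.573% and 0.175% of the same animal's muscle level. The summed level of the 9 myofiber markers ranged from 16.1 to 385 RPKM in fat and from 78526 to 101926 RPKM in muscle. The part of these muscle transcripts in the results was not tested, and values without these 2 libraries are given for the markers, the leading muscle genes and the gene lists they moved most. All 9 myofiber markers were called toward muscle, beside 22% of all genes tested. Their median log2 difference was -10.54, or -14.97 without these 2 libraries. In muscle, conversely, the 8 adipocyte markers in muscle had a median of 1.55%, 0.356%, 0.535% and 2.02% of their level in the same animal's fat. Their summed level was 358 to 500 RPKM in muscle and 4368 to 8957 RPKM in fat. Most of the sum in muscle was GPD1, which was not called, at 424, 327, 479 and 321 RPKM there.

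**Figure D1:**
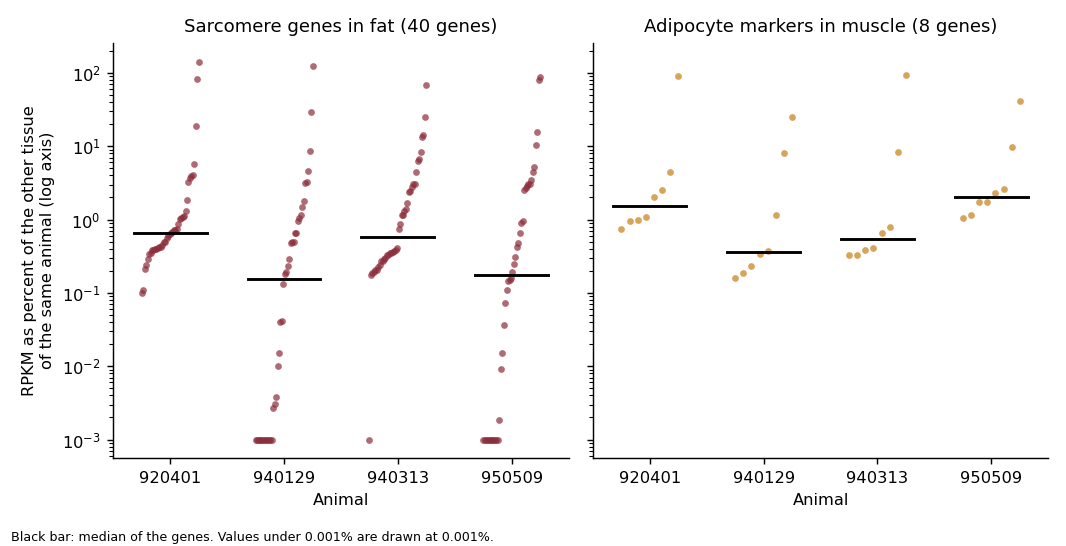
Each point is 1 gene, as its RPKM in percent of that in the other tissue of the same animal (log axis), for 40 sarcomere genes in fat (left) and 8 adipocyte markers in muscle (right), with the median of the genes as a black bar. In fat the medians of rhesus_920401 and rhesus_940313 (0.649% and 0.573%) lie above those of rhesus_940129 and rhesus_950509 (0.157% and 0.175%), in which several genes sit at the floor of the plot.

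The tissues differed at a large share of their genes. Of the 11173 genes averaging 1 RPKM or more over the 8 libraries, 5767 (51.6%) passed an edgeR quasi-likelihood test at an adjusted p under 0.05 with a log2 difference of at least 1 in size, and are said below to have been called, or to have passed, toward the tissue in which they were higher. Of these, 3308 (29.6% of the genes tested) were higher in fat and 2459 (22%) were higher in muscle. More genes passed toward fat, yet the largest differences lay toward muscle: a log2 difference of 7 or more was reached by 58 genes higher in fat and by 218 higher in muscle. The split depends on the scaling. With mapped totals 7040 genes (63%) passed toward fat and 799 (7.15%) toward muscle. All 3308 genes called toward fat passed again, while 32.5% of those called toward muscle did. No gene was called in opposite directions by the scalings. A difference not called by both could still change sign, as for AKT1 (-1.28, and 0.11 with mapped totals). RPKM values of all fat libraries exceeded all muscle libraries for 7262 genes (65%), and the reverse held for 946 (8.47%). At 1 RPKM or more in all 4 libraries of a tissue, fat had 10305 genes and muscle 7050, with 6623 in all 8 libraries. Genes with at least 10 reads in every library of one tissue and none in the other numbered 137 for fat and 29 for muscle.

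**Figure D2:**
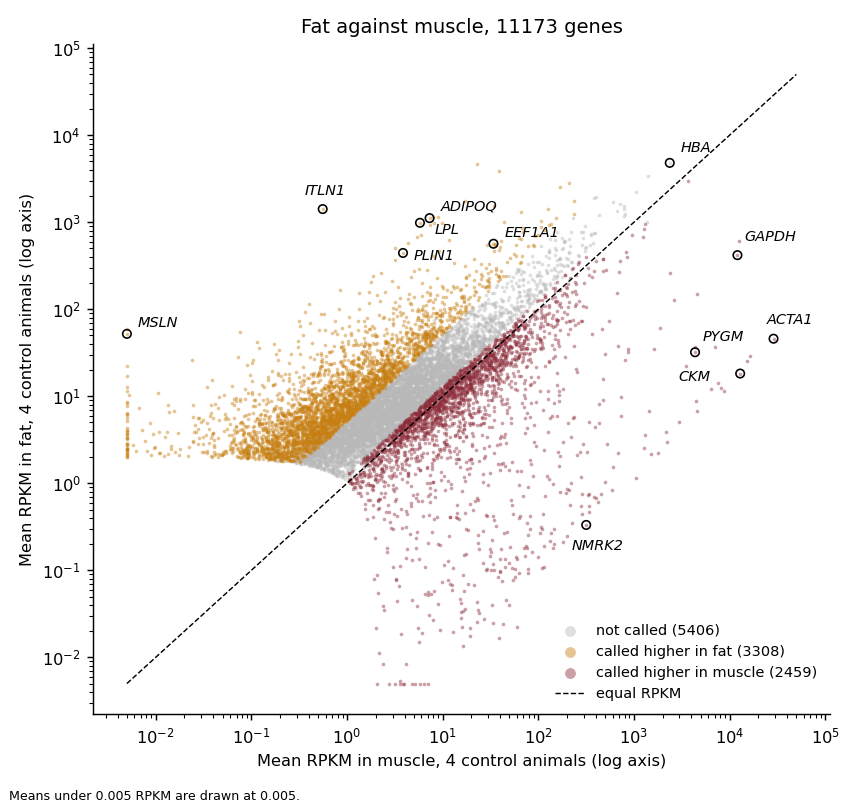
Mean RPKM in muscle (x) and in fat (y) of 11173 genes over 4 control animals, both on log axes, with genes called higher in fat (3308), called higher in muscle (2459) and not called (5406) in different colors. The dashed line marks equal RPKM; most uncalled genes lie above it, and single muscle genes such as ACTA1 reach levels that no fat gene has.

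Leading genes were ranked by the size of the difference among called genes. They had to average 10 RPKM or more in the higher tissue and not overlap in RPKM between tissues. Leading those higher in fat were markers of the mesothelium, the epithelium that covers abdominal organs and the fat beside them. MSLN, which encodes the surface protein mesothelin, stood at 46.8, 85.3, 50.5 and 26.1 RPKM in fat and had no read in any muscle library. Counted against a floor of 3 reads over the 4 muscle libraries, it was at least 2044-fold higher in fat on the TMM scale. KRT19, an epithelial keratin, stood at 57.1, 96.5, 61.6 and 25.2 RPKM in fat and at 0, 0, 0.0166 and 0 RPKM in muscle. WT1, a transcription factor of the mesothelium, stood at 12.5, 10.1, 19.1 and 9.50 RPKM in fat and at 0.0170 RPKM in 1 muscle library and 0 in the others. ITLN1, which encodes omentin, a protein secreted by omental fat, was also one of the most abundant fat transcripts, at 2427, 1779, 652 and 815 RPKM against 1.08, 0.221, 0.929 and 0 RPKM in muscle. All 4 animals showed these transcripts in fat and none or almost none in muscle. All 7 tested mesothelial markers were called higher in fat, beside 29.6% of all genes. Their median log2 difference was 10.1, or 9.86 with the genes at 0 set to their bound. Their summed level was 789 to 2556 RPKM in fat against 0.0705 to 1.30 in muscle. BNC1, another of them, stood between 3.60 and 4.204 RPKM in fat and had no read in muscle.

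Of the other 6 leading fat genes, 3 act in the control of lipolysis. ADRB3, an adrenergic receptor linked to lipolysis in adipocytes, stood at 1.14, 25.99, 7.57 and 10.9 RPKM in fat. It had no read in muscle, which made it at least 283-fold higher in fat. PDE3B, the phosphodiesterase through which insulin restrains lipolysis, stood at 8.95, 15.4, 26.2 and 40.3 RPKM in fat and between 0.0184 and 0.202 RPKM in muscle. PRKAR2B, a regulatory subunit of the cAMP-dependent kinase between them, was 113-fold higher in fat (95% interval 48.3 to 263). KLB, the co-receptor for FGF21, stood at 7.72, 6.67, 8.795 and 20.3 RPKM in fat and at 0.0423 RPKM in 1 muscle library and 0 in the others. The remaining leaders were BARX1, a homeobox factor at 22.6 to 47.0 RPKM in fat, and MMD, a membrane protein named for its rise in maturing monocytes, at 44.98 to 115 RPKM. ADRB3 varied most between the animals, from 1.14 to 25.99 RPKM in fat.

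Contraction, its calcium supply and energy metabolism led the genes higher in muscle. JSRP1, a protein of the junctional sarcoplasmic reticulum, stood at 116, 107, 149 and 91.8 RPKM in muscle and at 0.271, 0, 0.163 and 0 RPKM in fat. ATP2A1, the calcium pump of fast fibers, stood at 9207, 6952, 11334 and 7575 RPKM in muscle and at 28.7, 0.243, 16.6 and 0.0210 RPKM in fat. NMRK2, a nicotinamide riboside kinase of muscle, stood at 237 to 390 RPKM in muscle and at 0.599, 0, 0.730 and 0 RPKM in fat. For each of these the fat of rhesus_920401 and rhesus_940313 held more than the fat of the other 2 animals. The list went on with MYH4, a fast myosin heavy chain, DHRS7C, an enzyme of the sarcoplasmic reticulum, the muscle LIM protein CSRP3, the methyltransferase SMYD1, the ubiquitin ligase adaptor ASB15, the actin-binding activator ABRA, and MYADML2. Their log2 differences lay between -11.38 for JSRP1 and -10.98 for ABRA, with edgeR adjusted p-values of at most 0.00036. Without the fat libraries of rhesus_920401 and rhesus_940313 the 10 differences lay between -17.42 for ATP2A1 and -13.45 for DHRS7C.

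**Figure D3:**
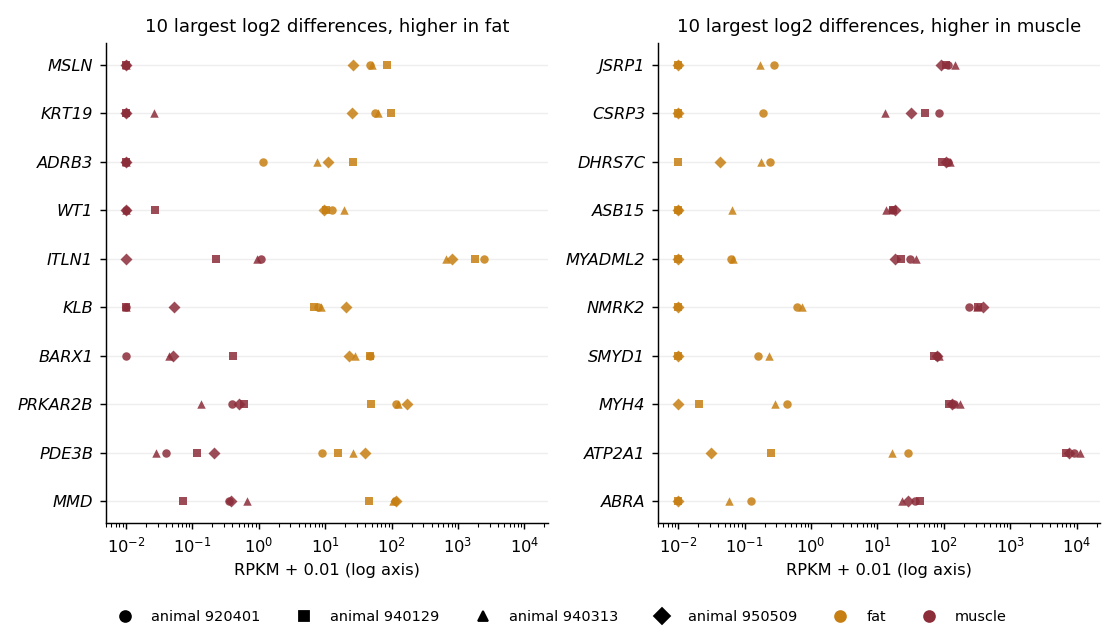
RPKM + 0.01 (log axis) in each library of the 10 genes with the largest log2 difference toward fat (left) and toward muscle (right), with a marker shape per animal and a color per tissue. Non-overlap between tissues was a condition for choosing the genes. The fat libraries of rhesus_920401 and rhesus_940313 lie above the other fat libraries for most of the muscle genes.

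By abundance the tissues were unlike in another way. In fat, the 10 most abundant genes with a symbol were the globin HBA at 6832, 6245, 4961 and 1225 RPKM, the apolipoprotein genes APOC1 (1077 to 8088 RPKM) and APOE (1246 to 2169 RPKM), ITLN1, the glutathione peroxidase GPX4 (log2 difference 1.03 ± 0.29, and 0.96, not called, with the animal as a block), the lipogenic regulator THRSP, leptin (LEP), ADIPOQ, the ferritin light chain FTL and vimentin (VIM). LEP stood at 2209, 1303, 584 and 461 RPKM in fat and at most at 16.6 RPKM in muscle. HBA marks blood and stood at 2378, 2830, 689 and 3592 RPKM in muscle, so the tissues overlapped (log2 difference -0.38 ± 0.58, edgeR adjusted p = 0.59, and 1.02 with mapped totals). In muscle, the leading genes with a symbol after ACTA1 were the fast myosin light chain MYL11 (13747 to 18528 RPKM), the fast troponin TNNC2 (12333 to 20135 RPKM), CKM and GAPDH, followed by ATP2A1, the oxygen-binding myoglobin MB, TNNT3, TNNI2 and the aldolase ALDOA. GAPDH, a glycolytic enzyme often used as a reference, stood at 12977, 9721, 14367 and 11373 RPKM in muscle and at 377, 642, 389 and 268 RPKM in fat, a 75.4-fold difference (95% interval 28.3 to 201).

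Nearly the whole contractile apparatus was higher in muscle, where 22% of all genes were called. Of 42 tested genes of sarcomere filaments and the Z-disc, 40 passed toward muscle and 1 toward fat, with a median log2 difference of -9.16, or -9.87 without the fat libraries of rhesus_920401 and rhesus_940313. Their summed RPKM was 26.5% to 29.1% of all RPKM in muscle and 0.170% to 0.434% in fat. The giant spring protein TTN stood at 3.74 to 10.05 RPKM in muscle and at most at 0.0433 RPKM in fat. TMOD1, which caps thin filaments, was among the most even members, at 110 to 144 RPKM in muscle and 3.55 to 4.67 RPKM in fat, and MYOM2, an M-band protein, stood at 149 to 282 RPKM against 0.753 to 1.15 RPKM. The exception was TPM3, a tropomyosin gene that also makes cytoskeletal forms outside muscle, at 59.4, 42.3, 51.8 and 42.2 RPKM in fat and 5.06, 6.70, 4.91 and 5.53 RPKM in muscle (log2 difference 1.76 ± 0.20, edgeR adjusted p = 1.8e-05). Reads of its muscle and cytoskeletal transcripts were counted together.

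Genes that couple excitation to contraction moved with the sarcomere. Of 19 tested, 15 passed toward muscle and 1 toward fat, beside 22% and 29.6% of all genes. The median was -8.52, or -9.13 without the 2 fat libraries. RYR1, the calcium release channel, stood at 196 to 395 RPKM in muscle and 0.132 to 1.23 RPKM in fat. STAC3, an adaptor of the calcium channel complex, and CACNB1, a subunit of that channel, were 367-fold and 432-fold higher in muscle (log2 differences -8.52 and -8.75, or -9.13 and -9.30 without the 2 fat libraries). The member higher in fat was ASPH, a hydroxylase gene that also encodes the junctional protein junctin, at 75.03, 28.4, 42.3 and 67.3 RPKM in fat and 0.562 to 1.32 RPKM in muscle. Of the neuromuscular junction, 3 of 4 tested genes passed toward muscle, led by RAPSN, which clusters acetylcholine receptors (20.6 to 33.4 RPKM against at most 0.231). Of the dystrophin complex and costamere, 10 of 15 passed toward muscle and none toward fat, with a median of -2.31. With mapped totals 7 passed toward muscle and 5 toward fat, beside 7.15% and 63% of all genes. SGCA, a sarcoglycan of muscle, was 377-fold higher in muscle (95% interval 217 to 657).

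The transcription factors of the muscle lineage followed. Of 11 tested, 10 passed toward muscle, beside 22% of all genes. The median of the 11 was -7.65, or -8.40 without the 2 fat libraries. The myogenic factor MYOD1 stood at 28.2, 32.05, 42.7 and 31.5 RPKM in muscle and at 0.411, 0, 0.0631 and 0 RPKM in fat. MYF6 stood at 55.6 to 72.0 RPKM in muscle and 0.167 to 0.852 RPKM in fat, and VGLL2, a cofactor of the TEAD factors, at 12.4 to 22.2 RPKM and at most 0.0565. MEF2D was shared more broadly, at 19.2 to 31.0 RPKM in muscle and 5.69 to 8.72 RPKM in fat (log2 difference -3.12 ± 0.24, edgeR adjusted p = 1.0e-06). Muscle ubiquitin ligases and kelch adaptors, which turn over and assemble sarcomere proteins, passed toward muscle at 19 of 20 members, with a median of -8.42. Among them TRIM72, which helps to reseal the muscle membrane, stood at 27.7 to 36.3 RPKM against 0.120 to 0.211 RPKM in fat, ASB2 at 183 to 242 RPKM against 0.460 to 1.42, and KLHL38 at 21.5 to 34.2 RPKM against 0.371 to 0.531. All 3 had reads in every fat library, and none overlapped between the tissues.

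Energy buffering genes were higher in muscle too. Of 9 tested genes of phosphocreatine and adenylate metabolism, 8 passed toward muscle and 1 toward fat, beside 22% and 29.6% of all genes. The median was -5.13. ADSS1, the adenylosuccinate synthase of muscle, stood at 493, 244, 591 and 388 RPKM in muscle and at 4.54 to 5.19 RPKM in fat. GAMT, which makes creatine, was 34.9-fold higher in muscle (95% interval 21.1 to 57.8), and the creatine transporter SLC6A8 11.9-fold (7.68 to 18.5). The exception was the nucleotide kinase CMPK1, with a log2 difference of 1.12 ± 0.32 toward fat, which was 0.64 and not called without the fat libraries of rhesus_920401 and rhesus_940313, and was not called either when one of these animals was left out.

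Glycogen and glycolysis genes divided by isoform. Of 16 tested glycogen genes, 10 passed toward muscle and 3 toward fat, beside 22% and 29.6% of all genes. PYGM, the muscle glycogen phosphorylase, stood at 4122, 4062, 5106 and 4158 RPKM in muscle and at 14.8, 79.4, 18.2 and 16.0 RPKM in fat. The liver and brain forms were the fat ones: PYGL stood at 41.8, 8.91, 21.5 and 43.2 RPKM in fat and 0.248 to 2.15 RPKM in muscle, and PYGB at 37.9 to 79.9 against 3.92 to 4.72 RPKM. Glycogenin, the primer of glycogen, divided likewise, with GYG1 at 78.6 to 142 RPKM in muscle and 19.1 to 25.9 RPKM in fat, and GYG2 at 16.4 to 39.5 RPKM in fat and at most 0.770 RPKM in muscle. Phosphorylase kinase subunits PHKA1 and PHKG1 were 132-fold and 216-fold higher in muscle (for PHKG1 a log2 difference of -7.75, or -7.09 without the 2 fat libraries), and the synthase GYS1 9.23-fold.

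Of 18 tested glycolysis genes, 10 passed toward muscle and 6 toward fat, beside 22% and 29.6% of all genes. The median of -1.93 hid this division between the tissues. PFKM, the muscle phosphofructokinase, stood at 743, 794, 779 and 644 RPKM in muscle and 7.27 to 12.03 RPKM in fat. PFKP, the platelet form, stood at 4.24 to 9.33 RPKM in fat and 0.642 to 1.69 RPKM in muscle, with a log2 difference of 1.17 ± 0.36 that was not called when any 1 of rhesus_920401, rhesus_940129 or rhesus_940313 was left out (1.09, 0.91 and 1.03). ALDOC, the aldolase first known from brain, stood at 1119, 1650, 523 and 641 RPKM in fat and 3.37 to 15.3 RPKM in muscle. ALDOA led in muscle, at 5867, 4107, 4215 and 4221 RPKM against 123 to 208 RPKM in fat. LDHB, the lactate dehydrogenase subunit of oxidative tissues, stood at 6.67 to 13.4 RPKM in fat and at most 0.212 RPKM in muscle, while LDHA stood at 221 to 362 RPKM in muscle and 62.7 to 78.5 RPKM in fat. Fructose bisphosphatase divided likewise, FBP2 being 169-fold higher in muscle (95% interval 46.6 to 613) and FBP1 13.5-fold higher in fat (3.10 to 58.9). PGK1, which has a single widespread form, was 16.6-fold higher in muscle, and PGAM1, the widespread phosphoglycerate mutase, 3.81-fold higher in fat.

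Mitochondrial oxidation was less one-sided than the contractile genes, and its calls depended on the scaling. Over all genes, 22% passed toward muscle and 29.6% toward fat, and 7.15% and 63% with mapped totals. Nuclear genes of oxidative phosphorylation passed toward muscle at 29 of 37 members and toward fat at none, with a median of -1.62; with mapped totals the median was -0.25, and 9 passed toward muscle and 1 toward fat. By complex, the medians were -1.72 for complex I (15 of 18 called toward muscle), -1.98 for complex II (4 of 4), -1.40 for complex III (3 of 5), -1.48 for complex IV (5 of 6) and -1.62 for complex V (6 of 8). NDUFS7, a complex I subunit, stood at 216, 220, 169 and 208 RPKM in muscle and at 49.98, 79.8, 44.1 and 36.4 RPKM in fat. COX5A, of cytochrome c oxidase, stood at 130 to 152 RPKM in muscle and 44.7 to 79.3 RPKM in fat. These 2 did not overlap between tissues even in RPKM, the scale less favorable to muscle. Of the 37 genes, 12 did not overlap and were higher in muscle, and 1 was so in fat. Over all genes these shares were 8.47% and 65%. Mitochondrially encoded subunits were not analysed here.

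In the tricarboxylic acid cycle and pyruvate dehydrogenase list, 14 of 29 genes passed toward muscle and 3 toward fat, beside 22% and 29.6% of all genes. The median of -0.99 turned to 0.37 with mapped totals. There 5 passed toward muscle and 6 toward fat, beside 7.15% and 63% of all genes. MDH2, the mitochondrial malate dehydrogenase, stood at 266 to 312 RPKM in muscle and 84.0 to 146 RPKM in fat, and SDHB at 57.3 to 98.3 RPKM in muscle and 30.5 to 42.1 RPKM in fat. The fat side included PC, pyruvate carboxylase, which feeds glyceride and fatty acid synthesis, at 51.8, 223, 111 and 168 RPKM in fat and 3.89 to 7.02 RPKM in muscle. PDP2, a phosphatase that activates pyruvate dehydrogenase, stood at 8.95 to 16.9 RPKM in fat and 0.763 to 0.982 RPKM in muscle. Both were called toward fat by both scalings.

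Genes of fatty acid oxidation and of branched-chain amino acid catabolism were called in both directions, at shares near or below those of all genes (22% toward muscle and 29.6% toward fat). With mapped totals the shares of all genes were 7.15% toward muscle and 63% toward fat, with a median of 1.61. Of 20 fatty acid oxidation genes, 4 passed toward muscle and 2 toward fat, with a median of -0.19 that turned to 1.18 with mapped totals, where 12 passed toward fat and none toward muscle. CPT1B, the muscle carnitine palmitoyltransferase, stood at 10.3 to 15.9 RPKM in muscle and 5.10 to 8.58 RPKM in fat (log2 difference -2.28 ± 0.25, and -0.90 and not called with mapped totals). ACADVL, the very long-chain acyl-CoA dehydrogenase, was called toward muscle at -1.65 ± 0.23 though its RPKM overlapped between tissues. HADH, a later step of the cycle, stood at 126 to 232 RPKM in fat and 26.9 to 30.8 RPKM in muscle. Of 20 branched-chain genes 5 passed toward fat and 3 toward muscle, with a median of 0.20; with mapped totals 14 passed toward fat and none toward muscle, with a median of 1.55. BCAT2, the mitochondrial transaminase that opens the pathway, and BCKDK, the kinase that inhibits it, were called toward muscle at -1.55 ± 0.35 and -1.87 ± 0.29, and neither was called with mapped totals. DBT, a core subunit of the dehydrogenase, and PCCA, which handles the propionyl-CoA formed later, stood toward fat at 2.22 ± 0.44 and 1.62 ± 0.27.

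Lipid synthesis genes were higher in fat nearly throughout, where 29.6% of all genes were called. Of 16 tested genes of fatty acid synthesis and desaturation, 15 passed toward fat and none toward muscle, with a median of 2.001; with mapped totals all 16 passed toward fat. ELOVL5, which elongates polyunsaturated fatty acids, stood at 344, 342, 526 and 815 RPKM in fat and 2.22 to 5.07 RPKM in muscle. The acetyl-CoA carboxylase ACACA stood at 11.1, 48.4, 36.5 and 37.1 RPKM in fat and 0.515 to 0.923 RPKM in muscle, and its mitochondrial relative ACACB at 98.9, 286, 136 and 226 RPKM in fat and 24.96 to 35.7 RPKM in muscle. Fatty acid synthase (FASN), chosen after its values were seen, had the widest spread, at 57.9, 2142, 691 and 801 RPKM in fat and 3.67, 7.33, 3.04 and 15.8 RPKM in muscle. The fat of rhesus_920401 was the lowest of the 4 for FASN, ACACA, ACACB, THRSP and PC, and yet lay above every muscle library for each of them. PGD, of the pentose phosphate pathway that supplies NADPH, was 4.16-fold higher in fat (95% interval 2.73 to 6.35).

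Of 11 tested genes of triglyceride assembly, 8 passed toward fat and none toward muscle, beside 29.6% and 22% of all genes. The median was 2.35. GPAM, the first acyltransferase of glycerolipid synthesis, stood at 129, 96.0, 198 and 250 RPKM in fat and 0.579 to 1.10 RPKM in muscle. DGAT2, which makes the final ester bond, stood at 449 to 953 RPKM in fat and 2.74 to 8.59 RPKM in muscle, and the phosphatidate phosphatase LPIN2 at 9.80 to 26.1 against 0.0545 to 0.330 RPKM. GPD1, which makes glycerol 3-phosphate, was abundant in both tissues, at 466, 1292, 509 and 774 RPKM in fat and 424, 327, 479 and 321 RPKM in muscle, and overlapped (log2 difference -0.41 ± 0.36, edgeR adjusted p = 0.34). PCK1, of glyceroneogenesis, stood at 57.3, 55.4, 2.63 and 114 RPKM in fat and at most 1.62 RPKM in muscle, with rhesus_940313 lowest in both tissues.

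The lipolysis and lipid droplet list passed toward fat at 9 of 11 members and toward muscle at 1, with a median of 2.78. The one toward muscle was AQP3, an aquaporin that also carries glycerol, at 0.280 to 2.62 RPKM in muscle and 0.377 to 1.66 RPKM in fat (log2 difference -1.71 ± 0.67; it was not called with mapped totals, at -0.31, with the animal as a block, at -1.49, or without rhesus_940129, at -1.46). The hormone-sensitive lipase LIPE stood at 636, 889, 318 and 680 RPKM in fat and 2.51 to 17.9 RPKM in muscle, and CIDEC, which enlarges droplets, at 554 to 1716 against 2.26 to 17.4 RPKM. PLIN4 stood at 979, 520, 299 and 377 RPKM in fat and 23.8 to 41.9 RPKM in muscle. Of 10 genes of fatty acid uptake and activation, 6 passed toward fat and 1 toward muscle, with a median of 2.52. LPL, which frees fatty acids from circulating lipoproteins, stood at 1007, 906, 768 and 1263 RPKM in fat and 2.02 to 10.2 RPKM in muscle, a 66.1-fold difference (95% interval 30.8 to 142). The acyl-CoA synthetases ACSL1 and ACSL5 were 9.44-fold and 13.7-fold higher in fat, and CAV1, of caveolae, 9.99-fold. Cholesterol synthesis passed toward fat at 7 of 12 genes and toward muscle at none, beside 29.6% and 22% of all genes. Its median was 1.12, with NSDHL (51.2 to 134 RPKM against 1.76 to 3.02) in front.

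**Figure D4:**
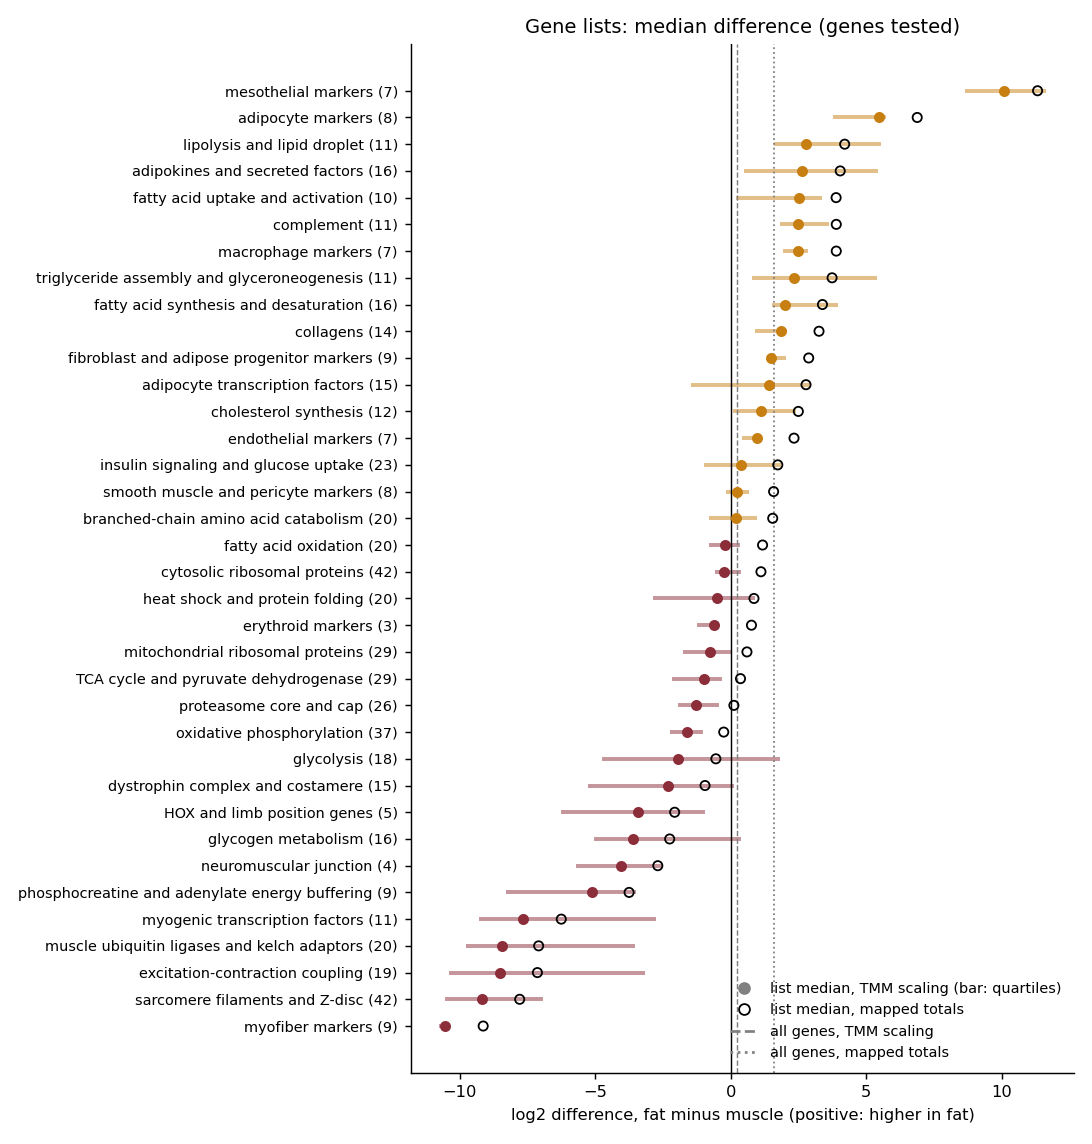
Median log2 difference, fat minus muscle, of 36 gene lists on the TMM scale (filled points, with bars from the first to the third quartile) and with mapped totals (open points), with the number of genes tested in parentheses and the medians of all genes as dashed (0.23) and dotted (1.61) lines. Lists from mesothelial markers (10.1) to myofiber markers (-10.5) are ordered by the TMM median, and open points lie to the right of filled ones throughout.

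Of 16 tested adipokines and other secreted factors, 11 passed toward fat and 1 toward muscle, with a median of 2.65. Over all genes the shares were 29.6% and 22%. RBP4, the retinol carrier that fat secretes, stood at 854, 597, 866 and 523 RPKM in fat and 0.998 to 9.74 RPKM in muscle. NRG4, a growth factor described in brown fat, was the one toward muscle, at 10.5 to 19.8 RPKM in muscle and 4.70 to 7.19 RPKM in fat. Among 15 tested transcription factors of adipocytes, 9 passed toward fat and 4 toward muscle, beside the same shares of all genes. PPARG, the receptor that directs adipocyte differentiation, stood at 69.6, 123, 93.8 and 113 RPKM in fat and 0.929 to 2.06 RPKM in muscle, and CEBPA at 62.5 to 107 against 1.45 to 3.42 RPKM. RXRA, the partner with which PPARG binds DNA, went the other way, at 46.7, 39.0, 34.7 and 30.7 RPKM in muscle and 13.8 to 22.4 RPKM in fat (log2 difference -2.49 ± 0.25, edgeR adjusted p = 6.8e-06).

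Positional genes separated the tissues as well. Of 5 tested HOX and limb position genes, 4 passed toward muscle and 1 toward fat, beside 22% and 29.6% of all genes. HOXC10, a gene of posterior and hindlimb identity that is also known from subcutaneous fat, stood at 63.0, 73.4, 101 and 57.7 RPKM in muscle and at 0.541, 0.0213, 0.203 and 0 RPKM in fat. HOXA9 stood at 3.18 to 4.70 RPKM in muscle and at most 0.300 RPKM in fat, and HOXD8 at 5.69 to 12.2 RPKM in muscle and 1.09 to 3.06 RPKM in fat. HOXB8 was the reverse, at 6.54, 9.96, 4.22 and 8.61 RPKM in fat and 0.0269 RPKM in 1 muscle library and 0 in the others. No HOX gene named here overlapped between the tissues. Of the 4 genes of the list called toward muscle, 3 did not overlap in RPKM. With mapped totals 3 passed toward muscle, beside 7.15% of all genes.

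Genes of insulin signaling and glucose uptake were called at shares near those of all genes (29.6% toward fat and 22% toward muscle). Of 23 tested, 8 were called toward fat and 4 toward muscle, with a median of 0.37. With mapped totals 15 passed toward fat and none toward muscle, beside 63% and 7.15% of all genes. SLC2A4, which encodes the insulin-regulated transporter GLUT4, stood at 148, 147, 148 and 112 RPKM in muscle and at 50.9, 139, 61.4 and 68.3 RPKM in fat. The fat library of rhesus_940129 lay within the range of muscle and the other 3 lay below it, and the log2 difference of -2.17 ± 0.34 became -0.80, not called, with mapped totals. IRS1, the adaptor of the insulin receptor, was called toward muscle at -1.84 ± 0.27 with overlapping RPKM (13.5 to 17.7 in muscle, 7.70 to 16.5 in fat), and the inhibitory adaptor GRB10 likewise at -1.62 ± 0.22. On the fat side, PIK3R1, the regulatory subunit of phosphoinositide 3-kinase, stood at 12.2 to 34.8 RPKM against 0.445 to 1.03 RPKM in muscle. PRKD1, a protein kinase D, stood at 3.53 to 4.92 RPKM against 0.247 to 0.367 RPKM.

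Most fibroblast and all macrophage markers tested were called higher in fat. Of the markers tested, 8 of 9 for fibroblasts and progenitors, 7 of 7 for macrophages and 3 of 7 for endothelium were called toward fat and none toward muscle, against 29.6% of all genes. The fibroblast proteoglycan LUM stood at 149, 58.5, 91.4 and 157 RPKM in fat and 2.87 to 8.23 RPKM in muscle, and DCN at 790 to 1278 against 114 to 141 RPKM. MRC1, the mannose receptor of macrophages, stood at 20.9, 7.39, 10.5 and 11.3 RPKM in fat and 0.315 to 1.18 RPKM in muscle. C1QC and CD163, also of macrophages, were 5.63-fold and 5.12-fold higher in fat. Endothelial genes differed less, at 3.20-fold for KDR, the VEGF receptor, and 2.14-fold for PECAM1, whose log2 difference of 1.10 ± 0.22 fell to 0.98 without rhesus_920401. Of 8 smooth muscle and pericyte markers 1 was called, TAGLN, at 1145, 266, 337 and 345 RPKM in fat and 36.1 to 44.9 RPKM in muscle (log2 difference 2.30 ± 0.41, and 1.65 without rhesus_920401), and ACTA2 was not (log2 difference 0.19 ± 0.23, edgeR adjusted p = 0.50). With mapped totals all 7 endothelial and 6 of 8 smooth muscle and pericyte markers passed toward fat, beside 63% of all genes. None of the 3 erythroid markers was called, and their median of -0.61 turned to 0.77 with mapped totals.

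Of 14 tested collagen genes, 10 passed toward fat and none toward muscle, with a median of 1.88. Over all genes 29.6% passed toward fat and 22% toward muscle. COL3A1, of fibrillar collagen, stood at 169 to 254 RPKM in fat and 16.4 to 29.1 RPKM in muscle, COL4A1, of the basement membrane around every adipocyte and fiber, at 70.4 to 157 against 3.53 to 8.72 RPKM, and COL14A1 was 7.42-fold higher in fat. Complement genes, which fat cells and macrophages both make, passed toward fat at 10 of 11 members, with a median of 2.49. C3, the central component, stood at 481, 377, 405 and 194 RPKM in fat and 1.02 to 6.68 RPKM in muscle, C7 at 21.4 to 52.7 against 0.493 to 1.19 RPKM, and CFB was 7.52-fold higher in fat (95% interval 4.48 to 12.6).

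Protein synthesis and degradation genes moved less, and the medians of several lists changed sign with the scaling. The median of all genes moved likewise, from 0.23 to 1.61 with mapped totals. Toward fat 29.6% of all genes passed, and 63% with mapped totals. Toward muscle the shares were 22% and 7.15%. Of 42 cytosolic ribosomal protein genes, 4 passed toward muscle and none toward fat, with a median of -0.26 that turned to 1.12 with mapped totals, where 26 passed toward fat and 1 toward muscle. RPL3L, the muscle-specific relative of RPL3, was the exception under both, at 232, 246, 251 and 181 RPKM in muscle and 0.881, 0, 0.510 and 0 RPKM in fat. Mitochondrial ribosomal proteins passed toward muscle at 12 of 29 members and toward fat at 1, with a median of -0.75 that turned to 0.60 with mapped totals, where 10 passed toward fat and 1 toward muscle. MRPL34, one of them, stood at 133 to 180 RPKM in muscle and 53.5 to 100 RPKM in fat. The proteasome passed toward muscle at 16 of 26 members, with a median of -1.26 that turned to 0.12 with mapped totals, where 6 passed toward fat and 4 toward muscle. PSMD2 and PSMC3, of its regulatory cap, stood at 68.3 to 102 against 28.5 to 44.2 RPKM and at 50.5 to 72.4 against 23.5 to 35.4 RPKM.

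Chaperones were called in both directions. The heat shock and folding list had 8 of 20 called toward muscle and 5 toward fat, beside 22% and 29.6% of all genes. Its median of -0.51 turned to 0.86 with mapped totals, where the median of all genes was 1.61. HSPB7, a small heat shock protein of muscle, stood at 461, 315, 189 and 211 RPKM in muscle and 1.80 to 4.86 RPKM in fat, UNC45B, the myosin chaperone, at 24.9 to 47.4 against at most 0.146 RPKM, and BAG3, which clears damaged filament proteins, at 58.6 to 82.9 against 6.32 to 13.6 RPKM. The members toward fat included HSP90B1 and PDIA3 of the endoplasmic reticulum, at 142, 42.5, 93.6 and 104 RPKM and 149, 101, 109 and 104 RPKM in fat, against at most 7.35 and 21.9 RPKM in muscle. All 5 genes named kept their direction with mapped totals.

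Since several families held a muscle member and a member of wider use, the ratio of the 2 was taken within each library, where library scaling cancels. Of 42 pairs listed, 31 had both members matched. In 25 of them the ratio was further toward the muscle member in every muscle library than in any fat library, in 3 it overlapped and in 3 it was further toward that member in fat. The pairs were picked as textbook muscle and general forms, so these counts describe the pairs and nothing beyond them. In 9 pairs the leading member itself changed. EEF1A1 and EEF1A2 encode translation elongation factors; EEF1A1 stood at 543 to 605 RPKM in fat and 25.6 to 39.5 RPKM in muscle, and EEF1A2 at 0 to 2.22 RPKM in fat and 482 to 689 RPKM in muscle. Only uniquely mapped reads were counted, so genes with near-identical copies such as EEF1A1 and RPL3 may be undercounted in both tissues. AMPD1, the AMP deaminase of muscle, stood at 348, 347, 371 and 283 RPKM there and at 1.09, 0, 0.787 and 0 RPKM in fat, where AMPD2 (2.91 to 5.59 RPKM) led. FLNC gave way to FLNA, the filamin of other cells, SLC16A3, a lactate exporter, to SLC16A1, and PRKAA2, a catalytic subunit of the AMP-activated kinase, to PRKAA1. The ratio of the FLNC to the FLNA level ranged from -2.90 to -2.28 (log2) in fat and from 2.86 to 4.60 in muscle. For PPARD over PPARG, the ratio lay between -3.87 and -2.43 in fat and between 0.72 and 2.18 in muscle, and PPARG was called toward fat while PPARD was not called (log2 difference 0.34 ± 0.32, edgeR adjusted p = 0.37). The other crossing pairs were ACTA1 and ACTA2, ALDOA and ALDOC, and RPL3L and RPL3.

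**Figure D5:**
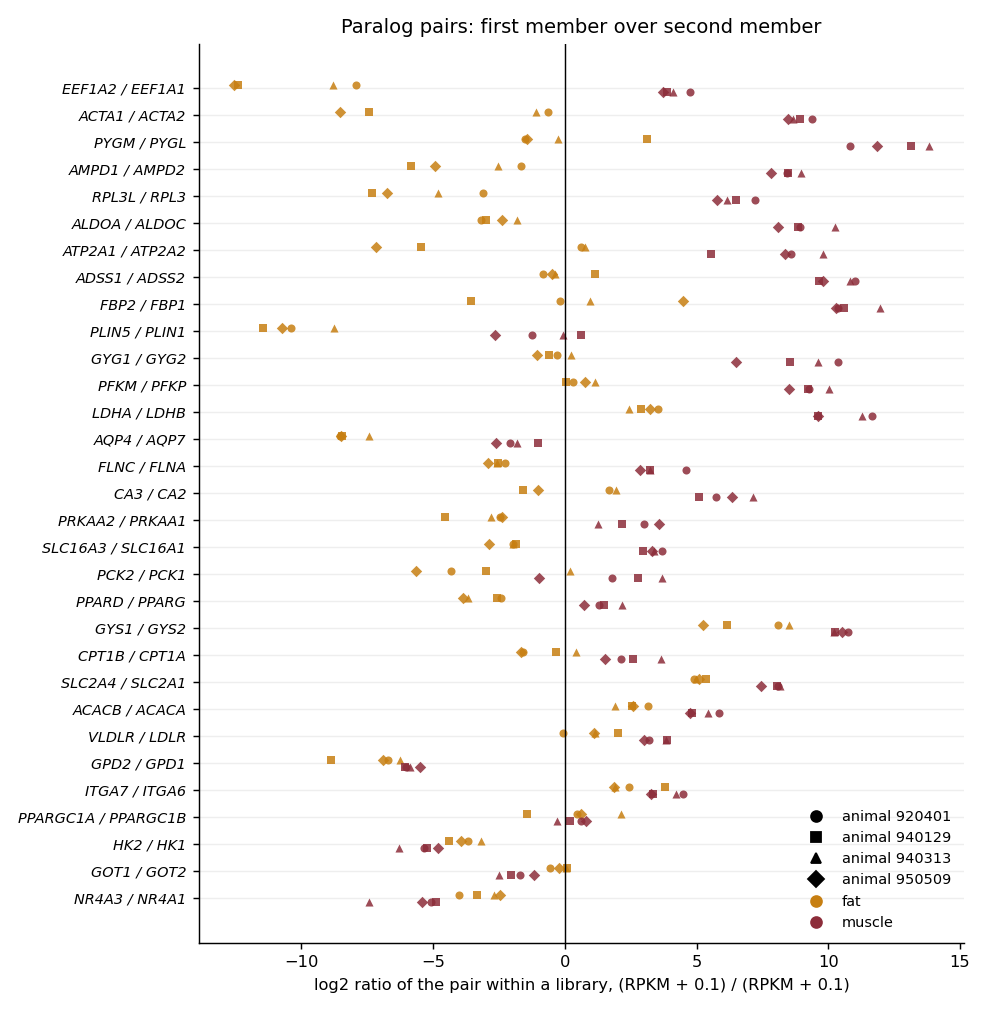
Log2 ratio of RPKM + 0.1 of the first member to that of the second within each library, for 31 pairs, with a color per tissue and a marker shape per animal. The line at 0 marks equal levels; for 25 pairs all muscle points lie to the right of all fat points, and 9 pairs cross the line.

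A small group of genes was alike in the 2 tissues on the TMM scale. For 33 genes the 95% interval of the log2 difference lay within -0.5 and 0.5, and for 1594 it lay within a log2 difference of 1 in either direction. The most abundant of the 33 with a symbol were HNRNPC, an RNA-binding protein of the nucleus (-0.02 ± 0.19), the integrin-linked kinase ILK (-0.06 ± 0.19), the small GTPase RAC1 (-0.06 ± 0.19), the splicing factor SRSF4 (0.05 ± 0.17) and CCDC92 (-0.03 ± 0.21). With mapped totals the same 5 lay 1.33 to 1.42 toward fat, and HNRNPC stood at 73.4 to 89.6 RPKM in fat and 28.2 to 35.2 RPKM in muscle. Their likeness is therefore relative to the scaling.

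Fewer genes reached an adjusted p under 0.05 for the animal than for the tissue. With 1 library of each tissue per animal, differences between animals may have been missed. The median standard deviation between animals, taken within each tissue, was 0.43 in fat and 0.40 in muscle on the log2 scale. It holds all spread between libraries and does not measure what the tissues share. With tissue in the model, 0 of 11173 genes (0%) reached an adjusted p under 0.05 for the animal in edgeR, 411 had an unadjusted p under 0.05, the smallest adjusted p was 0.10, and DESeq2 called 63. Among the genes with the smallest p were PCK1, described above, MYOC, which encodes myocilin, at 20.9, 23.0, 3.28 and 13.1 RPKM in fat and 28.9, 22.2, 3.90 and 9.23 RPKM in muscle, and PRG4, the lubricating protein of joints, at 111, 55.5, 13.1 and 30.1 RPKM in fat and 4.57, 1.77, 0.133 and 1.30 RPKM in muscle. For all 3, rhesus_940313 was lowest in both tissues. CHIT1, a chitinase of lipid-laden macrophages, stood at 220, 3.27, 29.2 and 6.89 RPKM in fat and 1.53, 0.444, 1.68 and 0.5002 RPKM in muscle, and its log2 difference of 4.47 ± 1.14 was 2.62 without rhesus_920401 and 0.91, not called, without the fat libraries of rhesus_920401 and rhesus_940313.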

How the data were processed

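Poly(A) RNA of each tissue was sequenced with a strand-specific dUTP protocol, from total RNA extracted with Trizol. The authors deposited 1 table per library with 28595 genes, giving read counts per gene and RPKM, which they computed from the count, the length of the longest transcript and the number of mapped reads. The submitters' processing notes name TopHat 1.2.0, and only uniquely mapped reads were kept, so genes with near-identical copies may be undercounted. The counting tool, its use of strand, the genome build and the annotation were not given in the sources used here. Reads of overlapping genes on one strand, such as those around KLB, GPX4, TTN, ASPH, MEF2D, BCKDK, ACACB, PECAM1, MRC1, RPL3, PRKAA1 and CNTNAP2, may be shared between them.

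Genes that averaged 1 RPKM or more over the 8 libraries were tested on the deposited counts with the quasi-likelihood test of edgeR 4.0.16 (R 4.3.3), with TMM factors, tissue as the only term and Benjamini-Hochberg adjustment over all 11173 genes. Called genes had an adjusted p under 0.05 and differed by 1 or more on the log2 scale. The animal term was tested with tissue in the model. RPKM was compared as deposited. Fat and muscle of 1 animal are paired by the labels. Their deviations from the tissue means correlated at 0.0988, -0.136, 0.0902 and 0.158 over genes for the 4 animals. Fat and muscle of different animals correlated at -0.170 to 0.172. A fit with the animal as a block was an alternative. Others used limma 3.58.1, DESeq2 1.42.0, other scalings and filters, and fits without single animals. On simulated counts for the tissue difference, the test called 79 of 100 genes changed by a log2 of 2, 8 of 100 changed by 1 and 2 unchanged genes. All other genes of the 11173 were left unchanged there, whereas 6953 had an adjusted p under 0.05 in the data. The adjustment was therefore stricter in the simulation, and its recovery does not measure how many real differences were missed. With 4 animals, small differences may have been missed, and intervals cover the spread between these animals only.

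Symbols came from a table of gene IDs; 15409 genes (53.9%) had one, and 147 symbols that RefSeq places on another chromosome were not used, FABP4 among them. Of 1000 symbols in 49 gene lists, 722 matched and 647 were tested. The libraries, lists and pairs were chosen with earlier results of these data known. Genes named are the 4 markers, the 10 largest non-overlapping differences each way averaging 10 RPKM or more in the higher tissue, the 10 most abundant in each tissue, up to 4 members of each list with the smallest p and 2 of the rarer direction, pair members, the 10 smallest p of the animal term and the 5 most abundant of those whose interval lay within -0.5 and 0.5. FASN, MYH7 and the fiber genes were named after their values were seen. Some genes are not reported here.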

Additional observations from a re-analysis of the deposited data

Results flagged for a closer look

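Single libraries far from the other 3 of their tissue were looked for in 343 groups of 4 libraries, 1 for each named gene and tissue. In 31 of them (9.04%) the gap of the highest or lowest library to its neighbour exceeded Dixon's critical value for 4 samples, as a share of the group's range. For normally distributed values chance gives about 1 in 20. The RPKM were not logged and some groups held 3 values of 0, so the 9.04% cannot show an excess over that rate. The ratio of gap to range is given in parentheses.

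Among metabolic genes, PYGM in fat was highest in rhesus_940129 at 79.4 RPKM against 14.8 to 18.2 (0.947), and in muscle in rhesus_940313 at 5106 against 4062 to 4158 (0.908). SLC2A4 in muscle was lowest in rhesus_950509 at 112 RPKM against 147 to 148 (0.974), as was BCAT2 at 12.3 against 22.9 to 23.6 (0.937). ALDOA was highest in the muscle of rhesus_920401 (0.935), PLIN4 likewise (0.837), PGK1 in the muscle of rhesus_940313 (0.875), and FBP1 had no read there (0.924).

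Slow-fiber genes stood apart in the muscle of rhesus_940129, with MYH7 at 531 RPKM against 45.5 to 80.1 (0.929) and ATP2A2 at 149 against 12.8 to 24.1 (0.916). Muscle genes in fat stood apart in rhesus_920401 for MYOD1 (0.846) and CSRP3 (1), and in rhesus_940313 for MYH7 (0.895) and ASB15 (1); CSRP3 and ASB15 had no read in the other 3 fat libraries, which fixes the ratio at 1, and 6 and 4 reads in these. FLNC in muscle was highest in rhesus_920401 at 314 RPKM against 127 to 153 (0.862).

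The fat of rhesus_920401 was highest for CHIT1 at 220 RPKM against 3.27 to 29.2 (0.880), TAGLN (0.910), DCN (0.838) and PDIA3 (0.838), and its muscle for MRC1 (0.842). The fat of rhesus_940129 was highest for APOE (0.840) and for ITIH1, an inter-alpha-trypsin inhibitor chain, at 27.0 RPKM against 0.0855 to 1.09 (0.962), and lowest for MMD (0.869). The fat of rhesus_950509 was highest for KLB (0.843) and lowest for ALAS2, an erythroid heme enzyme, at 2.86 RPKM against 14.9 to 17.2 (0.838). PLEKHB1 in the muscle of rhesus_940313 reached 51.9 RPKM against 2.03 to 2.82 (0.984). In muscle, fat genes at or near 0 were set apart by a few reads in 1 library for KRT19, WT1, KLB and HOXB8 (1 each) and BARX1 (0.897).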

How the results depend on the processing

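The tissue comparison gave 5767 calls, 5712 with the animal as a replicate block (57.0% toward fat, 5583 shared), 7839 with mapped totals (89.8% toward fat) and 4698 without the fat libraries of rhesus_920401 and rhesus_940313 (4531 shared). With TMM the share toward fat was 57.4%. A filter at 5 RPKM left 6131 genes and 3325 calls, and leaving out each animal gave 5063 to 6086. No gene called in the main fit was called in the opposite direction under any alternative. A limit on the size of the difference inside the test (glmTreat) gave 3845. The animal term had 9 calls with no filter, 63 with DESeq2, 62 without the fat libraries of rhesus_920401 and rhesus_940313, and 0 to 3 without each animal; the cause was not tested. Of 159 called genes named with values, 137 kept the call in every alternative that tested them and 22 lost it in at least 1; the block lost the calls of GPX4 and AQP3 and changed no other call of these genes. Directions turned with mapped totals, limma with a pseudocount of 1 and limma with 0.1, in that order, all of which lack the TMM factors, for HBA (1.02, 0.990, 0.990), GPD1 (0.971, 0.867, 0.868) and ALAS2 (0.770, 0.558, 0.592). List medians turned likewise for erythroid markers (0.770, 0.558, 0.990), the tricarboxylic acid cycle (0.365, 0.323, 0.344), fatty acid oxidation (1.18, 1.07, 1.16), cytosolic (1.12, 1.04, 1.08) and mitochondrial ribosomal proteins (0.604, 0.582, 0.633), the proteasome (0.122, 0.0987, 0.10004) and heat shock genes (0.862, 0.809, 0.845). Upper-quartile scaling and the filter at 5 RPKM turned fatty acid oxidation (0.0828, 0.136) and cytosolic ribosomal proteins (0.0320, 0.0522), and that filter turned insulin signaling (-0.507). None of HBA, GPD1 and PPARD was called; HBA ranged from -0.745 to 0.243 and PPARD from -0.106 to 0.631 without each animal, and GPD1 was 0.0657 without the 2 fat libraries. FBP1 without rhesus_940129 and genes under 5 RPKM had no value there. Depth limits the genes at a few reads, whose fold is a bound.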

Other observations

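Genes of slow muscle fibers, a set chosen after their values were seen, varied together between the animals. All 9 of the matched slow-fiber genes were highest in the muscle of rhesus_940129. The slow myosin heavy chain MYH7 stood at 80.1, 531, 45.5 and 72.0 RPKM, the slow troponins TNNT1 and TNNC1 at 651 and 1530 RPKM in rhesus_940129 against at most 130 and 238 in the others, and the light chains MYL2 and MYL3 at 1145 and 648 RPKM against at most 208 and 105. The calsequestrin CASQ2 was 2.38-fold over the next animal and TPM3 1.21-fold. All 9 matched fast-fiber genes were instead highest in the muscle of rhesus_940313, among them PVALB, a calcium buffer of fast fibers, at 923 RPKM against 96.7 to 233, and TNNC2 at 20135 RPKM against 12333 to 15269. The muscle sampled is not named in the labels, and which muscle or region was taken from each animal was not tested.

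Other lists were small or called in both directions, beside 29.6% of all genes called toward fat and 22% toward muscle. Of 15 tested clock genes 7 were called toward muscle and 2 toward fat, of 31 splicing and nuclear genes 5 and 3, of 11 immediate early genes 2 and 2, of 7 mitochondrial biogenesis genes 4 and 1, of 3 Schwann cell markers 2 and 1, and of 2 satellite cell markers 1 and 1. Of 11 interferon response genes 2 were called toward fat, as were 2 of 4 for antigen presentation by MHC class II, 2 of 2 mast cell markers and 1 of 2 for T and NK cells, with none toward muscle. With mapped totals, where 63% of all genes passed toward fat and 7.15% toward muscle, 8 clock, 17 splicing and nuclear and 10 interferon response genes passed toward fat and none toward muscle. Neither of 2 myokines nor the 1 neutrophil marker was called, and no B or plasma cell marker reached the filter.

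Calls also went with transcript length and level. With genes split into 5 equal groups by transcript length, 19.7% of the shortest and 40.8% of the longest were called toward fat and 24.7% and 16.4% toward muscle. Split likewise by summed mean RPKM, 40.1% of the lowest and 22.9% of the highest were called toward fat and 9.66% and 38.8% toward muscle.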
